A study of Mus musculus with 18 samples.

Results

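The genes described here are 10 genes within 10 Mb of Ahr on mouse chromosome 12 whose transcript levels differed between WT and Ahr-KO intestinal eosinophils, out of 22708 genes measured. They were chosen by position and by their measured difference between those groups (an adjusted p below 0.05), as candidates for strain variants carried along with the targeted locus. Their difference between WT and Ahr-KO is therefore a description and carries no test here. The table holds 92 genes within 10 Mb of Ahr, of which 46 were high enough to be tested in that comparison. The members are Adi1, Rnf144a, Acp1, Trappc12, Agr2, Pik3cg, Agmo and Prps1l1, which code for proteins, and 9130015A21Rik and F730043M19Rik, which are long noncoding RNAs. All 10 passed the minimum level, a mean at least 1 above the lowest value on the log2 scale over the 12 samples, Rnf144a only through WT (mean 6.46, against 5.88 in Ahr-KO).

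Eosinophils were sorted from the small intestine as CD11b+ MHC-II- SiglecF+ SSChi cells, and their RNA was sequenced in bulk. There were 6 samples of each of 3 genotypes, 3 from females and 3 from males, labelled wildtype (WT), Ahr knockout (Ahr-KO) and Ahrr knockout (Ahrr-KO), all of the strain label C57/BL6. The labels name no treatment, and the methods describe mice bred in the same facility and matched for age and sex. WT and Ahr-KO mice were neither littermates nor housed together, so litter and housing cannot be told apart from genotype. How the Ahr-KO and Ahrr-KO alleles were made, in cells of which strain, how far the lines were backcrossed, and how the Ahrr-KO mice were kept are not given in the sources used here. No sequence variant of these mice was read here, so whether they carry another strain's sequence near Ahr was not tested.

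Ahr codes for the aryl hydrocarbon receptor, a transcription factor that moves to the nucleus on binding dietary, microbial or synthetic ligands and pairs with ARNT at DNA sites with the core GCGTG. Among the genes it switches on is Ahrr, whose product represses the receptor. A targeted allele is often made in embryonic stem cells of one mouse strain and crossed into another, and a stretch of the donor strain's chromosome around the target can then stay with it, together with any variant it holds. Ahrr lies on chromosome 13, so the Ahrr-KO samples show the chromosome 12 genes in a line whose targeted gene is elsewhere.

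Values are the deposited variance-stabilized levels on a log2 scale unless another scale is named, and this scale shrinks the differences of genes with few counts relative to the ratio of those counts. Total counts per sample were 3842977 to 8149200 in WT (median 6022409.5), 6581818 to 10284124 in Ahr-KO (median 9647589.5) and 8788867 to 12046933 in Ahrr-KO (median 10371556). Depth was lowest in WT, so a low count was least precise there. A pair of libraries stood apart: 2464 genes had a count of 0 in WT F3 and 3014 in Ahr-KO F3, against 5472 to 7562 genes in the other 16 libraries. The members' differences from Ahr-KO and the numbers of members called by genotype and by sex are also given without them, and in all other results they stay in unless stated.

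Ahr itself, at chr12:35497979-35534989 on the minus strand of GRCm38, had a level of 13.40 to 14.40 (median 13.76) in WT, 14.15 to 14.67 (median 14.55) in Ahr-KO and 13.03 to 14.42 (median 13.51) in Ahrr-KO. All 3 groups overlapped, so by transcript level the samples labelled Ahr-KO did not lack Ahr. Ahrr had a level of 9.79 to 10.39 (median 10.12) in WT, 5.02 to 5.79 (median 5.25) in Ahr-KO and 9.95 to 10.93 (median 10.37) in Ahrr-KO. The Ahr-KO samples held 0 to 10 counts of Ahrr and lay far below both other groups, while those labelled Ahrr-KO were not below WT in Ahrr. The difference WT minus Ahrr-KO was 0.20 for Ahr (standard error 0.26, adjusted p = 0.82 from limma) and -0.28 for Ahrr (standard error 0.18, adjusted p = 0.683). Reads were counted over each gene as a whole and the deleted stretches are not given, so these counts check neither deletion, and the groups keep their labelled names.

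Of the 10 members, 4 had a higher mean in WT (Acp1, Trappc12, Rnf144a and Agr2) and 6 had a higher mean in Ahr-KO (Adi1, Prps1l1, Agmo, Pik3cg, 9130015A21Rik and F730043M19Rik). Because they were chosen for it, all 10 were called in WT against Ahr-KO, where 8.84% of 11346 genes were called, 3.68% higher in WT and 5.16% higher in Ahr-KO. The levels of 6 members did not overlap between those groups (Acp1, Trappc12, Pik3cg, Agmo and both long noncoding RNAs), which held for 4.51% of all tested genes. Without the F3 libraries all 10 kept their direction and 8 were called (Rnf144a and Agr2 were not), while the number of genes called went from 1003 to 586. The median difference was -0.55 over the members and 0.00 over all tested genes, which again follows from the choice. At the edge of the threshold by limma, Agr2 was just inside with an adjusted p of 0.0347, and Ahr (0.0557), Sypl (0.0711) and Stxbp6 (0.0805) were just outside. By voom on recovered counts, WT minus Ahr-KO was -0.62 for Ahr (adjusted p = 0.04), so that tool called it. In bulk samples, fewer cells of a type and less RNA per cell cannot be told apart, which holds for every level given here.

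**Figure D1:**
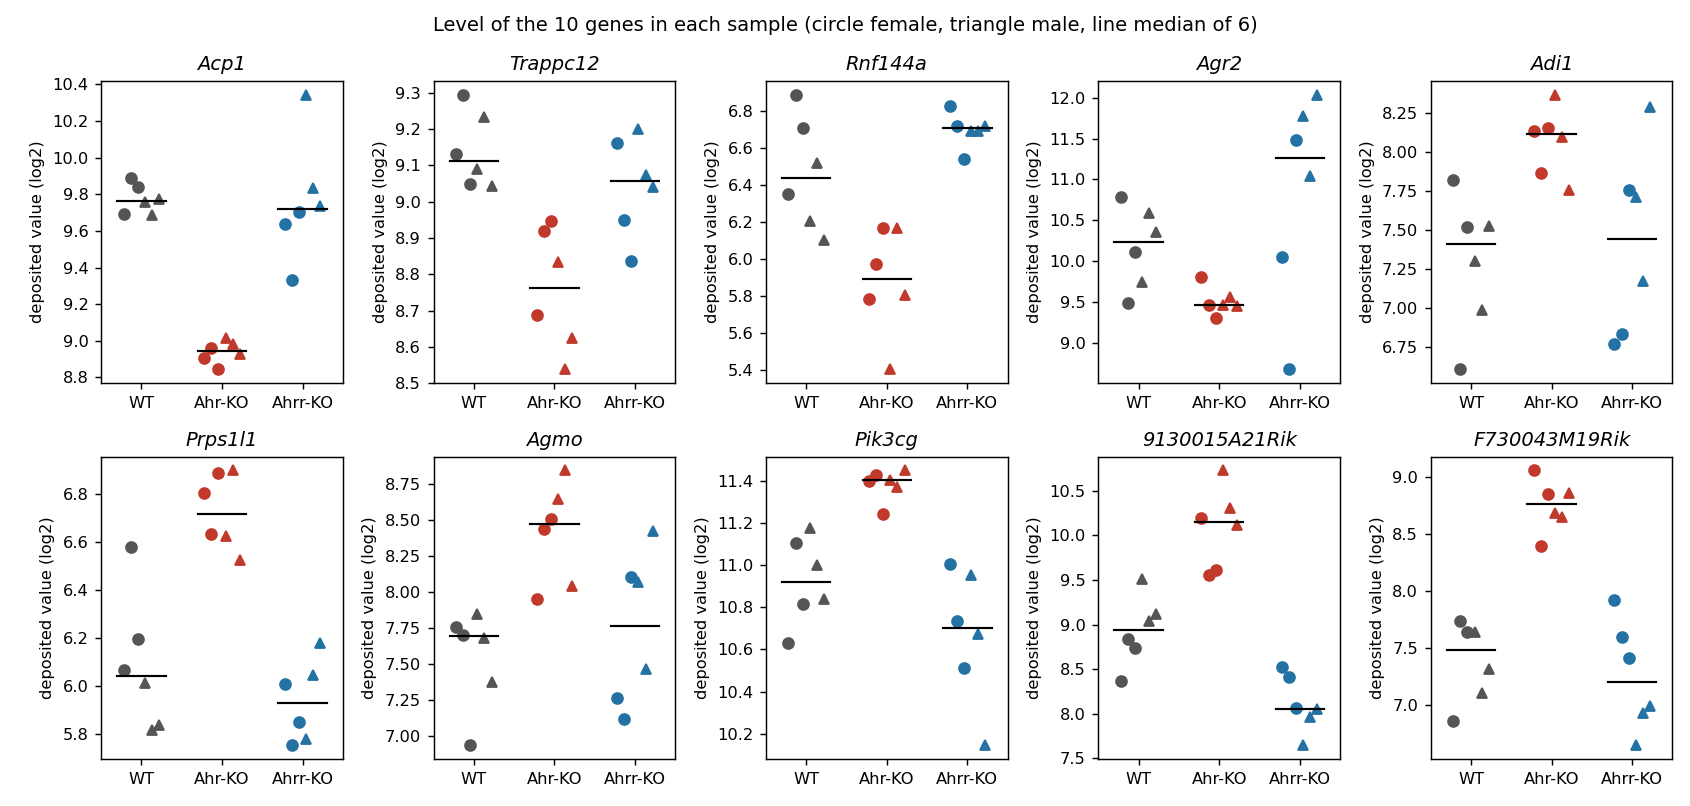
Level of each of the 10 genes (y axis, deposited log2 value) in the 6 samples of each genotype, with circles for females, triangles for males and a line at the median. Acp1 lay between 8.84 and 9.02 in Ahr-KO and at 9.33 or above in every other sample, while 9130015A21Rik was highest in Ahr-KO and lowest in Ahrr-KO.

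Acp1, at chr12:30893326-30911619 on the minus strand, codes for the low molecular weight protein tyrosine phosphatase, a small cytosolic enzyme that acts on growth factor receptors and adhesion signalling. Its level was 9.69 to 9.89 (median 9.76) in WT, 8.84 to 9.02 (median 8.95) in Ahr-KO and 9.33 to 10.34 (median 9.72) in Ahrr-KO. The Ahr-KO samples lay below both other groups without overlap, and the Ahrr-KO samples spread on either side of WT. In normalized counts the medians were 806 in WT, 430 in Ahr-KO and 780 in Ahrr-KO. Subtracting the Ahr-KO mean from the WT mean, which is how every difference from Ahr-KO is coded here, gave 0.83 (standard error 0.08). Without the F3 libraries it was 0.80 (standard error 0.09). Acp1 is read in the opposite direction to its neighbour Sh3yl1, with 0.049 kb between their starts. Sh3yl1, a lipid-binding adaptor gene, had a difference WT minus Ahr-KO of 0.44 (standard error 0.20) and was not called there. Tmem18, the tested neighbour on the other side, had -0.13 (standard error 0.14), opposite in sign to that of Acp1, and was not called.

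Pik3cg, at chr12:32173397-32208677 on the minus strand, codes for p110 gamma, the phosphoinositide 3-kinase subunit that acts downstream of chemokine and other G protein-coupled receptors in leukocytes. Its level was 10.63 to 11.17 (median 10.92) in WT, 11.24 to 11.45 (median 11.40) in Ahr-KO and 10.15 to 11.01 (median 10.70) in Ahrr-KO. Ahr-KO was above both other groups without overlap, and WT and Ahrr-KO overlapped. The lowest Ahr-KO sample was F3, whose 11.24 came closest to WT. Its difference WT minus Ahr-KO was -0.45 (standard error 0.10), and -0.46 (standard error 0.12) without the F3 libraries. Its tested neighbours on the chromosome, Prkar2b, a regulatory subunit gene of protein kinase A, and Ccdc71l, had differences of 0.20 (standard error 0.13) and 0.20 (standard error 0.14), opposite in sign to that of Pik3cg and not called.

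Trappc12, at chr12:28690620-28750485 on the minus strand, codes for a subunit of the TRAPP III complex. That complex tethers vesicles in traffic between the endoplasmic reticulum and the Golgi and in autophagy. Its level was 9.04 to 9.29 (median 9.11) in WT, 8.54 to 8.95 (median 8.76) in Ahr-KO and 8.84 to 9.20 (median 9.06) in Ahrr-KO. WT and Ahr-KO did not overlap, and Ahrr-KO overlapped with both. Its difference WT minus Ahr-KO, was 0.38 (standard error 0.10), and 0.44 (standard error 0.10) without the F3 libraries. Rnf144a, at chr12:26306794-26415319 on the minus strand and farthest of the members from Ahr, codes for a RING-between-RING E3 ubiquitin ligase known to act on the DNA repair kinase DNA-PKcs. It had few counts, 2 to 23 per sample in Ahr-KO, 16 to 39 in WT and 47 to 80 in Ahrr-KO, and its level was 6.10 to 6.89 (median 6.44), 5.40 to 6.17 (median 5.89) and 6.54 to 6.83 (median 6.71) in WT, Ahr-KO and Ahrr-KO. WT M3 fell within the Ahr-KO range, and Ahrr-KO lay above Ahr-KO without overlap. WT exceeded Ahr-KO by 0.58 (standard error 0.15), and without the F3 libraries it was 0.59 (standard error 0.17) with Rnf144a no longer called.

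Agr2, at chr12:35992925-36004081 on the plus strand, codes for a protein disulfide isomerase of the endoplasmic reticulum that goblet cells need to fold the mucin MUC2. Its level was 9.49 to 10.79 (median 10.24) in WT, 9.31 to 9.81 (median 9.47) in Ahr-KO and 8.68 to 12.03 (median 11.26) in Ahrr-KO. All 3 groups overlapped, and Ahrr-KO held both the lowest sample, F2, and the highest, M3. WT exceeded Ahr-KO by 0.67 (standard error 0.19), and 0.65 (standard error 0.22) without the F3 libraries, where it was no longer called. The next tested gene, Tspan13, a tetraspanin gene, had a difference of -0.14 (standard error 0.15).

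Adi1, Agmo and Prps1l1 are described next. Adi1, at chr12:28675207-28682175 on the plus strand, codes for acireductone dioxygenase of the methionine salvage pathway, and its level was 6.60 to 7.82 (median 7.41) in WT, 7.76 to 8.37 (median 8.12) in Ahr-KO and 6.77 to 8.29 (median 7.44) in Ahrr-KO. WT F1 lay above the lowest Ahr-KO sample, M3, and Ahrr-KO spanned most of both ranges. WT minus Ahr-KO was -0.77 (standard error 0.18), and without the F3 libraries it was -0.80 (standard error 0.21). Adi1 and Trappc12 face each other with 8.44 kb between them, and their differences had opposite signs. Their outer neighbours Rnaseh1, which codes for an RNase that cuts RNA in RNA-DNA hybrids, and Eipr1, a gene of vesicle tethering, had differences of -0.29 (standard error 0.11) and -0.11 (standard error 0.13) and were not called.

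Agmo, at chr12:37241639-37581932 on the plus strand, codes for alkylglycerol monooxygenase, which cleaves ether lipids with tetrahydrobiopterin as cofactor. Its level was 6.94 to 7.85 (median 7.69) in WT, 7.96 to 8.85 (median 8.47) in Ahr-KO and 7.12 to 8.43 (median 7.77) in Ahrr-KO. WT and Ahr-KO did not overlap, and Ahrr-KO overlapped with both. WT minus Ahr-KO was -0.86 (standard error 0.17), and -0.71 (standard error 0.17) without the F3 libraries, since WT F3 was the lowest sample. Prps1l1, at chr12:34984761-34986436 on the plus strand, codes for a testis-type relative of phosphoribosyl pyrophosphate synthetase, which makes the sugar phosphate of nucleotides. It had 8 to 26 counts in WT, 39 to 67 in Ahr-KO and 8 to 35 in Ahrr-KO, and its level was 5.82 to 6.58 (median 6.04), 6.53 to 6.90 (median 6.72) and 5.76 to 6.18 (median 5.93) in the same order. WT F2 reached into the Ahr-KO range, and Ahrr-KO did not. Here WT minus Ahr-KO was -0.64 (standard error 0.13), and -0.63 (standard error 0.15) without the F3 libraries.

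No role is stated here for the long noncoding RNAs. 9130015A21Rik, at chr12:35672290-35695118 on the minus strand, is the next gene after Ahr among those tested, 137 kb away. Its level was 8.37 to 9.51 (median 8.94) in WT, 9.56 to 10.73 (median 10.16) in Ahr-KO and 7.65 to 8.53 (median 8.06) in Ahrr-KO. Ahr-KO lay above both other groups without overlap, and only WT F1 lay within the Ahrr-KO range. In normalized counts the medians were 430 in WT, 1080 in Ahr-KO and 205 in Ahrr-KO. Between the means of WT and Ahr-KO the difference was -1.15 (standard error 0.14), and -1.21 (standard error 0.17) without the F3 libraries. F730043M19Rik, at chr12:33111711-33147586 on the minus strand, had a level of 6.86 to 7.74 (median 7.48) in WT, 8.40 to 9.05 (median 8.76) in Ahr-KO and 6.65 to 7.92 (median 7.20) in Ahrr-KO. Ahr-KO stood above both other groups, which covered much the same range. Its difference WT minus Ahr-KO was -1.36 (standard error 0.16), and -1.39 (standard error 0.18) without the F3 libraries. By voom, on recovered counts, WT minus Ahr-KO was -1.80 for F730043M19Rik, 1.56 for Rnf144a, -1.45 for Prps1l1, -1.27 for 9130015A21Rik, -1.06 for Agmo, -1.05 for Adi1 and 0.92 for Acp1, so the order of the members by size depends on the scale. Its neighbours Sypl, a synaptophysin-like vesicle gene, and Atxn7l1 had differences of 0.31 (standard error 0.10) and -0.22 (standard error 0.11) and were not called.

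Promoters are shown because the receptor's core motif GCGTG can be looked for in genes that moved with the Ahr genotype. RefSeq promoters on GRCm38.p6, 250 bases before to 50 bases after each start, were found for 8 of the 10 members, with 10 promoters in all. Adi1 and Prps1l1 were missing. The motif GCGTG, on either strand, was in 4 of the 10 promoters (40%), those of Rnf144a, Trappc12, F730043M19Rik and a second start of Pik3cg, and in 32.4% of 32851 mouse promoters. The longer form TNGCGTG, each match of which is also a match of GCGTG, was in 5.07% of all promoters. Among the members it was in the promoter of Rnf144a alone, and the Ahrr promoter given below holds it as well. Below are Rnf144a (chr12:26415213-26415512, minus strand), Trappc12 (chr12:28750351-28750650, minus strand) and F730043M19Rik (chr12:33147537-33147836, minus strand), with the motif or its reverse complement CACGC in capitals, and Acp1 (chr12:30911563-30911862, minus strand) and 9130015A21Rik (chr12:35695069-35695368, minus strand), which hold neither. Ahrr (chr13:74292282-74292581, minus strand) is given as a known target of the receptor.
Rnf144a: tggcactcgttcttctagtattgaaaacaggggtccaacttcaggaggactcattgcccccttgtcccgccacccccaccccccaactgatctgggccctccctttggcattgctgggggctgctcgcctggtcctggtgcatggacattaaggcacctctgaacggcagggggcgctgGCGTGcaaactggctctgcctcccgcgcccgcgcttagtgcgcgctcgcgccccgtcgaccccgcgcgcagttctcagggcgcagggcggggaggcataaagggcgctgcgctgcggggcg
Trappc12: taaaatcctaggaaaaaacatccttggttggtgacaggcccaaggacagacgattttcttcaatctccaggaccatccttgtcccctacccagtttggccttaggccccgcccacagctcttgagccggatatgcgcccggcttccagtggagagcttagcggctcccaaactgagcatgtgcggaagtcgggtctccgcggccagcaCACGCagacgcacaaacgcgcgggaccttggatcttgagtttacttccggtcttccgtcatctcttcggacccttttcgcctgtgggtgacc
F730043M19Rik: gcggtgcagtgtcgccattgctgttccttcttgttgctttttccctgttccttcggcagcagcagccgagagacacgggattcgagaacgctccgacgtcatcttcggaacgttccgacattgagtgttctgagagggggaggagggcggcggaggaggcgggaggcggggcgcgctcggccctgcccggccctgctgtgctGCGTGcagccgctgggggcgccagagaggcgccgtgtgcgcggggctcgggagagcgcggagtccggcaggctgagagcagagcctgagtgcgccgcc
Acp1: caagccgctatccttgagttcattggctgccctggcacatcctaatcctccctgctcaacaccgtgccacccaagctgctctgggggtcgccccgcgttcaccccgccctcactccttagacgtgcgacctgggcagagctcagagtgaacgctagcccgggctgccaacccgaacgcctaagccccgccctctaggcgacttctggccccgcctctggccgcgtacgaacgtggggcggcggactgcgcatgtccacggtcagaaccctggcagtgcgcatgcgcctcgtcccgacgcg
9130015A21Rik: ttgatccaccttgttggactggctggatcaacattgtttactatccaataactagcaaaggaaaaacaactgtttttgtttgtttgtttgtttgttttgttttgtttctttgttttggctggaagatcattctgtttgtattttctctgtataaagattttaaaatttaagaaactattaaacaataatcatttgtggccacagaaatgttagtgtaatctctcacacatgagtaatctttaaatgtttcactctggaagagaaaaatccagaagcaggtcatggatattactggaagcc
Ahrr: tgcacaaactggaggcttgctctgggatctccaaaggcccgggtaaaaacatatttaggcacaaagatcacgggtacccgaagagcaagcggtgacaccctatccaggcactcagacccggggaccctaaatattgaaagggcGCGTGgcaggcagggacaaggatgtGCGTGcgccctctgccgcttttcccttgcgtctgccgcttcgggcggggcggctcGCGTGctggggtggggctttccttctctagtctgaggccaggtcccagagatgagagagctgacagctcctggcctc

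The position of the core was counted from the start that each promoter was drawn around. It was -71 in Rnf144a, -42 in Trappc12, -48 in F730043M19Rik and -228 in the second start of Pik3cg. In Rnf144a, Trappc12 and Pik3cg that start lies inside the gene coordinates given above, so these positions are not distances from the gene's outer end. Ahrr held the core 3 times, at -107, -82 and -27. Base composition split the members around the median of 52.7% G or C over all promoters. Above it were F730043M19Rik (68.7%), Rnf144a and Acp1 (67% each) and Trappc12 (57%). Below it were Agr2 (47.3%), Agmo (39.7%) and the printed 9130015A21Rik promoter (32.3%). Pik3cg was also below it, with 44% at one start and 40.7% at the second start, which holds the core. Members with the core were found on both sides, higher in WT (Rnf144a, Trappc12) and higher in Ahr-KO (F730043M19Rik, Pik3cg). A match describes letters only, and binding of the receptor was not measured in these samples.

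By position, members lay on both sides of Ahr, from -9.19 Mb (Rnf144a) to 1.74 Mb (Agmo) between gene starts, where a negative sign means a smaller coordinate. Within 2.5 Mb of Ahr, 5 of 13 tested genes (38.5%) were called in WT against Ahr-KO, and all are members: F730043M19Rik at -2.39 Mb, Prps1l1 at -0.513 Mb, 9130015A21Rik at 0.174 Mb, Agr2 at 0.495 Mb and Agmo. From 2.5 to 5 Mb it was 2 of 22 (9.09%), Acp1 and Pik3cg, and from 5 to 10 Mb 3 of 11 (27.3%), Adi1, Trappc12 and Rnf144a. From 10 to 20 Mb, outside the range the members were taken from, 8 of 43 genes (18.6%) were called, against 22 of 296 (7.43%) on the rest of chromosome 12 and 963 of 10961 (8.79%) on other chromosomes. The shares within 10 Mb describe the region that supplied the members, and those farther out are given beside them without a test. The tested genes within 2.5 Mb include Ahr itself. The called genes were interleaved with genes that were not called: Snx13, a sorting nexin gene between Prps1l1 and Ahr, had a difference of -0.15 (standard error 0.10), Twistnb, an RNA polymerase I subunit gene before Prps1l1, -0.14 (standard error 0.10), and the neighbours of Agmo, Ankmy2 and Arl4a, -0.22 (standard error 0.14) and -0.19 (standard error 0.16).

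Just beyond the range, Id2, which codes for an inhibitor of basic helix-loop-helix transcription factors and starts 10.4 Mb before Ahr, is the tested neighbour of Rnf144a. Its level was 7.40 to 8.24 (median 7.66) in WT, 8.60 to 9.56 (median 9.30) in Ahr-KO and 7.33 to 8.38 (median 7.95) in Ahrr-KO. Ahr-KO was above both other groups without overlap, opposite in direction to Rnf144a. The other neighbour, Rsad2, an interferon-induced gene, had a difference WT minus Ahr-KO of 0.54 (standard error 0.22) and was not called. The plot of differences by distance shows members of both signs mixed along the chromosome with genes near 0.

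**Figure D2:**
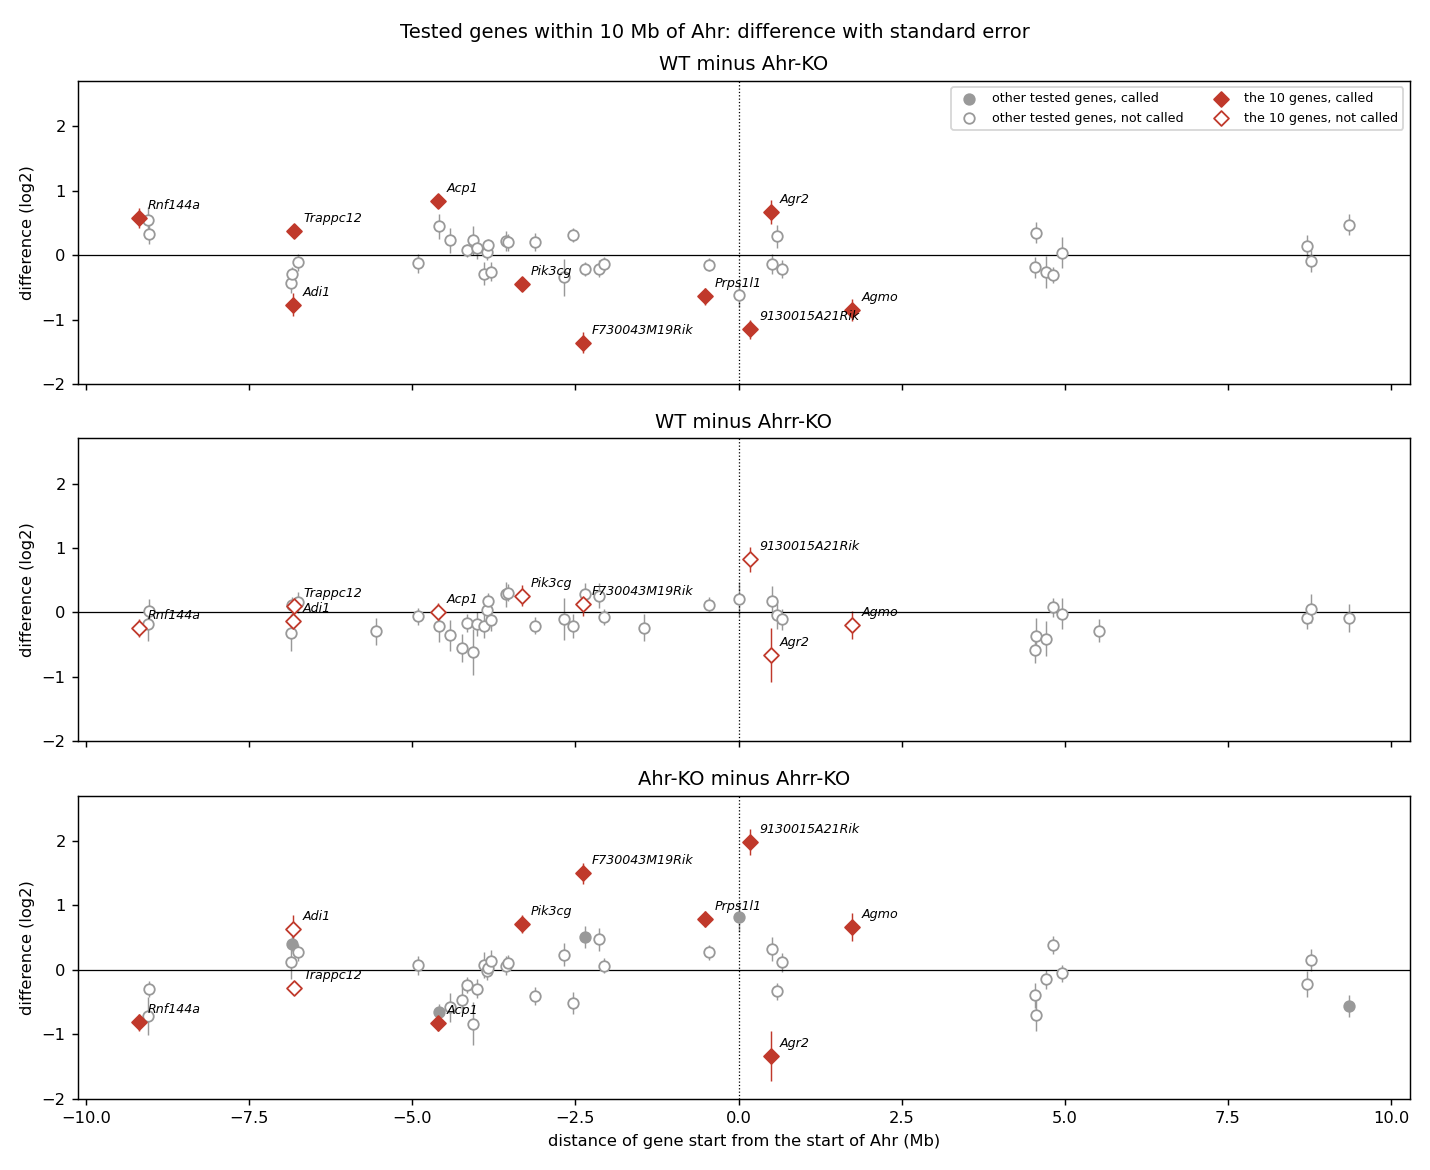
Difference in log2 level (y axis, with standard error) of every tested gene within 10 Mb of Ahr against the distance of its start from that of Ahr (x axis, Mb), for each pair of genotypes, with filled symbols for called genes and diamonds for the 10 members. In the upper panel 10 of 46 genes are filled, in the middle panel 0 of 49 and in the lower panel 13 of 47.

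WT against Ahrr-KO asks how the members stand in a line targeted on chromosome 13. It uses the WT samples that also served to choose the members. Of the 9 members tested, limma called 0, where 0.0779% of all 11546 genes (9 genes) were called. Prps1l1 was below the minimum. At an unadjusted p under 0.05 there was 1 member, 9130015A21Rik, and 853 genes in all. The other tool, voom on the recovered counts, called 0 members (1 unadjusted) and 4 genes. No member was without overlap between WT and Ahrr-KO, as were 0.459% of all genes, and the median difference was 0.01 over the members and -0.01 over all genes. Without WT F3 the members called were 0 as well and the genes 6, and leaving out any library gave 4 to 25 genes (the most without Ahrr-KO F1). So few genes of any kind were called that the members' 0 lies near the background.

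For WT minus Ahrr-KO, Acp1 had 0.01 with a 95% confidence interval of -0.30 to 0.32. F730043M19Rik had 0.14 (interval -0.28 to 0.55), Trappc12 0.10 (-0.14 to 0.33) and Adi1 -0.13 (-0.69 to 0.43). Pik3cg had 0.26 (-0.09 to 0.61), Agmo -0.19 (-0.66 to 0.28), Rnf144a -0.24 (-0.54 to 0.07) and Agr2 -0.67 (-1.56 to 0.23). The interval of Agr2 was the widest, and its Ahrr-KO samples had the widest spread of any group of a member (SD 1.27). The exception among the members was 9130015A21Rik, which was higher in WT by 0.82 (standard error 0.19, adjusted p = 0.307 from limma), with 5 of 6 WT samples above every Ahrr-KO sample. It thus failed the correction, and its sign was opposite to that of its difference from Ahr-KO.

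**Figure D3:**
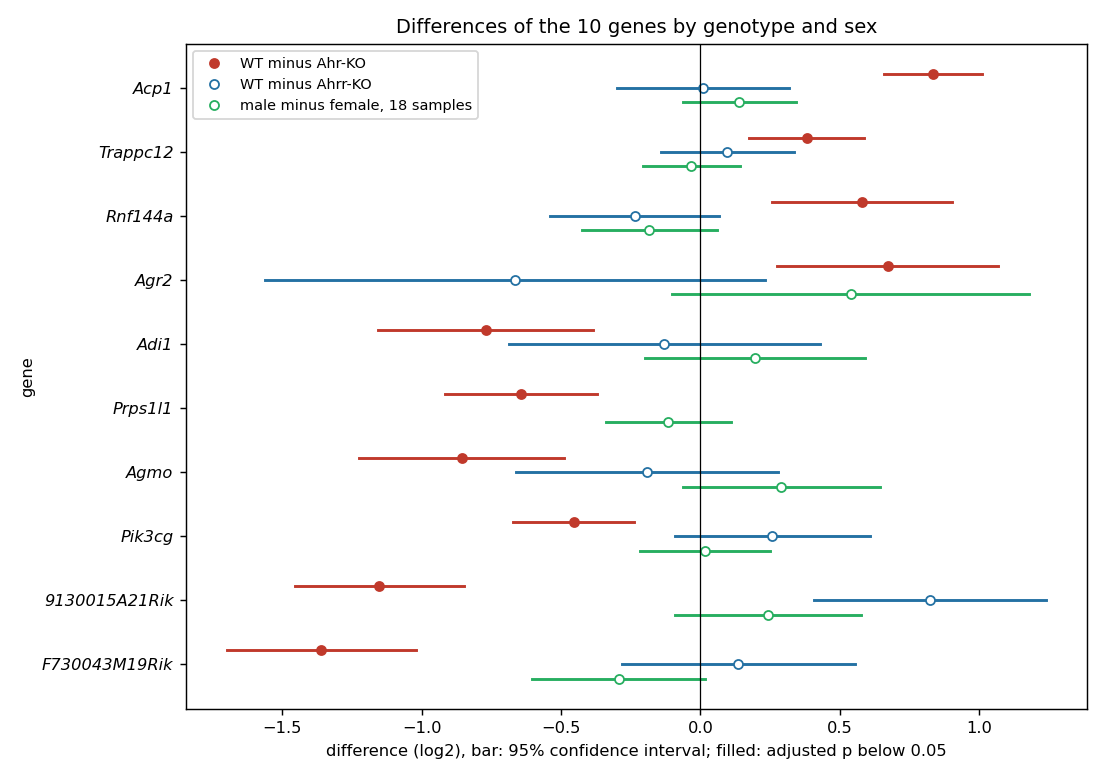
Difference in log2 level (x axis) of each of the 10 genes (y axis) with its 95% confidence interval, for WT minus Ahr-KO, WT minus Ahrr-KO and male minus female, filled where the adjusted p is below 0.05. Intervals of WT minus Ahr-KO lie to the right of 0 for 4 genes and to the left for 6, by choice of the genes, and 9130015A21Rik has the only interval of WT minus Ahrr-KO that leaves out 0.

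Ahr-KO against Ahrr-KO compares both knockout lines and uses the Ahr-KO samples that served to choose the members, so its calls are not independent of the choice. limma called 8 of the 10 members, where 14.9% of 11474 genes were called. That background of 1708 genes is unstable, going from 818 (without Ahr-KO M3) to 2574 (without Ahrr-KO F1) when a library is left out and to 298 with the summed epithelial markers as a covariate. Higher in Ahr-KO were 5 (Pik3cg, Agmo, Prps1l1, 9130015A21Rik and F730043M19Rik; 6.84% of all genes) and higher in Ahrr-KO 3 (Rnf144a, Acp1 and Agr2; 8.04% of all genes). The levels of 6 members did not overlap (Rnf144a, Acp1, Pik3cg, Prps1l1 and both long noncoding RNAs), as for 4.61% of all genes. Rnf144a and Prps1l1, counted in both, pass the minimum only through the group where they are high, with means of 5.88 and 6.70 for Rnf144a and 6.73 and 5.94 for Prps1l1 in Ahr-KO and Ahrr-KO. With the stricter minimum, 5 of the 6 members tested were called. The differences Ahr-KO minus Ahrr-KO were 1.98 (standard error 0.20) for 9130015A21Rik, 1.495 (0.17) for F730043M19Rik, 0.79 (0.12) for Prps1l1, 0.71 (0.14) for Pik3cg, -0.82 (0.13) for Acp1 and -0.82 (0.14) for Rnf144a. By voom they were 2.27 for 9130015A21Rik, 1.95 for F730043M19Rik, 1.87 for Prps1l1 and -2.05 for Rnf144a, so here too the order depends on the scale.

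The remaining members were nearer the threshold in that comparison. Agr2 had -1.34 (standard error 0.39, adjusted p = 0.0349 from limma) and Agmo 0.66 (standard error 0.21, adjusted p = 0.0475). Adi1, at 0.64 (standard error 0.22, adjusted p = 0.0587), and Trappc12, at -0.29 (standard error 0.11, adjusted p = 0.0945), were not called. Agr2 lost its call in 7 of the 12 fits that leave out a library and Agmo in 9. Without sex in the model, or with no minimum, 6 members were called and neither Agr2 nor Agmo was among them. With centring or quantile normalization 9 were called, Adi1 now included. With voom 7 members were called, Agmo no longer among them. Without Ahr-KO F3, Agmo had 0.60 (adjusted p = 0.0771) and was not called, and 7 members were. Of the other tested genes within 10 Mb of Ahr, 5 were called: Ahr at 0.82 (standard error 0.23, adjusted p = 0.0296), Rnaseh1 at 0.40, Atxn7l1 at 0.51, Sh3yl1 at -0.66 and Stxbp6, a gene of vesicle fusion, at -0.56.

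The same range was drawn around Ahrr on chromosome 13. In WT against Ahrr-KO limma called 0 of 74 tested genes there, with 8 at an unadjusted p under 0.05 and 0 called by voom. Around Ahr the same comparison gave 0 of 49, with 4 unadjusted and 0 by voom. In WT against Ahr-KO, 5 of 71 genes within 10 Mb of Ahrr (7.04%) were called, Ahrr, Exoc3, Lpcat1, Ctsl and Tppp, each higher in WT. Exoc3, an exocyst subunit gene, had a difference WT minus Ahr-KO of 1.41 (standard error 0.11).

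The sexes are balanced over the genotypes, and sex was not used to choose the members. Over all 18 samples with genotype in the model, limma called 0 of the 10 members between males and females, with 0 at an unadjusted p under 0.05, where 3.06% of 11468 genes (351) were called. Leaving out a library moved the 351 to between 142 (without Ahr-KO M1) and 733 (without WT F1). By voom, and without the F3 libraries, the members called were 0 as well. The differences male minus female ran from -0.29 in F730043M19Rik (95% confidence interval -0.60 to 0.02, adjusted p = 0.292 from limma) to 0.54 in Agr2 (interval -0.10 to 1.18, adjusted p = 0.354). These intervals still allow sizable differences in either gene. For Pik3cg, which was 0.02, the interval of -0.22 to 0.25 was among the narrower ones. Whether the difference between WT and Ahr-KO depended on sex was tested with an interaction term: limma called 0 of the 10 members and 0% of 11346 genes, with 0 members and 533 genes at an unadjusted p under 0.05 and 0 genes by voom. The interaction was between -0.30 (Prps1l1, interval -0.84 to 0.25) and 0.15 (Trappc12, interval -0.27 to 0.57). With 3 samples per sex and genotype these values are loosely bounded.

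Agr2 is also a goblet cell gene, and the summed levels of cell type markers were therefore set beside the members. On the log2 scale of summed normalized counts, 11 goblet cell markers other than Agr2 and Ccl6 had 12.77 to 14.24 (median 13.31) in WT, 12.19 to 12.63 (median 12.30) in Ahr-KO and 11.99 to 15.40 (median 14.34) in Ahrr-KO. WT lay above Ahr-KO without overlap, Ahrr-KO spanned both, and the order of the medians was that of Agr2. The difference WT minus Ahr-KO was 1.01, and 6 of the 9 tested were called, each higher in WT. The whole goblet cell list, with Agr2 and Ccl6 in it, differed by 0.09 (exact permutation p = 0.593, adjusted p = 0.652). The shorter list was made after the values were seen and carries no test. Spink4 was the most abundant per kb, and no marker was at 0 in all samples. Ccl6, which leukocytes also make, was left out because it moved against the others with a difference of -0.95. The cells were gated on CD11b and SiglecF, and where the goblet cell transcripts came from was not tested.

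Within each genotype, over its 6 samples, the members were then related to the summed goblet cell and enterocyte markers, 28 genes without Agr2 and Ccl6. That makes 30 relations, with p-values from exact permutation and adjusted over the 30. The sum was 13.68 to 15.43 (median 14.37) in WT, 13.21 to 14.04 (median 13.85) in Ahr-KO and 13.52 to 16.32 (median 15.52) in Ahrr-KO, so Ahr-KO covered the smallest range. For Agr2, Ahrr-KO had a Pearson r of 0.973 (exact p = 0.00278, adjusted p = 0.0417) and a Spearman rho of 0.943 (exact p = 0.0167, adjusted p = 0.125), and r was 0.901 without the 2 samples farthest from the median. In WT r was 0.911 (exact p = 0.00833, adjusted p = 0.05), rho 0.943 (exact p = 0.0167, adjusted p = 0.125) and 0.82 without those samples. In Ahr-KO r was -0.402 (exact p = 0.454) and rho -0.257 (exact p = 0.658), over a narrow range of the sum, and r was 0.228 without those samples.

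Besides that of Agr2 in Ahrr-KO, 1 relation had an adjusted p below 0.05 for r, and none had one for rho. It was that of Agmo in Ahrr-KO, with r 0.949 (exact p = 0.00139, adjusted p = 0.0417), rho 1.0 (exact p = 0.00278, adjusted p = 0.0833) and 0.992 without the 2 samples farthest from the median. In WT its r was 0.056 (exact p = 0.894) and rho -0.143 (exact p = 0.803). Not below it, Adi1 had r 0.932 in Ahrr-KO (exact p = 0.00694, adjusted p = 0.05), rho 0.943 (exact p = 0.0167, adjusted p = 0.125) and 0.982 without those samples. In WT its r of 0.811 (exact p = 0.05, adjusted p = 0.214, with rho at 0.829 and its exact p at 0.0583) fell to 0.072 without them and rests on them. F730043M19Rik in WT, also not below it, had r -0.908 (exact p = 0.00833, adjusted p = 0.05), rho -0.886 (exact p = 0.0333, adjusted p = 0.2) and -0.745 without them. The remaining relations had an adjusted p of 0.139 or more for r. Leaving Ccl6 out was itself decided on its values. With Ccl6 kept in the sum, the exact adjusted p for r was 0.0278 for Agr2, 0.0278 for Agmo and 0.0312 for Adi1 in Ahrr-KO (r 0.946, 0.969 and 0.96) and 0.0278 for F730043M19Rik in WT (r -0.946), and for rho it was 0.0417 for Agr2 in WT and for Agmo in Ahrr-KO. Which relations pass therefore depends on Ccl6.

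With the epithelial sum as a further covariate, an addition made after the data were seen, the differences WT minus Ahr-KO were 0.88 for Acp1, -0.98 for 9130015A21Rik, -1.09 for F730043M19Rik and -0.57 for Prps1l1. Those of Agr2 and Pik3cg shrank to 0.29 and -0.26 and were no longer called. That of Adi1 grew to -1.16. In Ahr-KO minus Ahrr-KO, Agr2 moved from -1.34 to 0.12 (adjusted p = 0.931), Pik3cg to 0.43 (adjusted p = 0.317) and Acp1 to -0.66 (adjusted p = 0.0678), while Adi1 rose to 1.40 (adjusted p = 0.000487) and was called. Agmo rose from 0.66 to 1.35 (adjusted p = 0.0012 from limma), and Ahr itself fell from 0.82 to 0.17 (adjusted p = 0.847). With Ccl6 kept in the sum, Agr2 at 0.48 and Pik3cg at -0.38 in WT minus Ahr-KO stayed called, as did the other members. In Ahr-KO minus Ahrr-KO it gave -0.15 for Agr2 (adjusted p = 0.863 from limma), 0.48 for Pik3cg (adjusted p = 0.143), 1.25 for Adi1 (adjusted p = 0.000312), 1.17 for Agmo (adjusted p = 0.00243) and -0.68 for Acp1 (adjusted p = 0.0221), which stayed called. A sum that differs between genotypes takes part of the genotype difference with it, so what these shifts come from cannot be told apart.

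**Figure D4:**
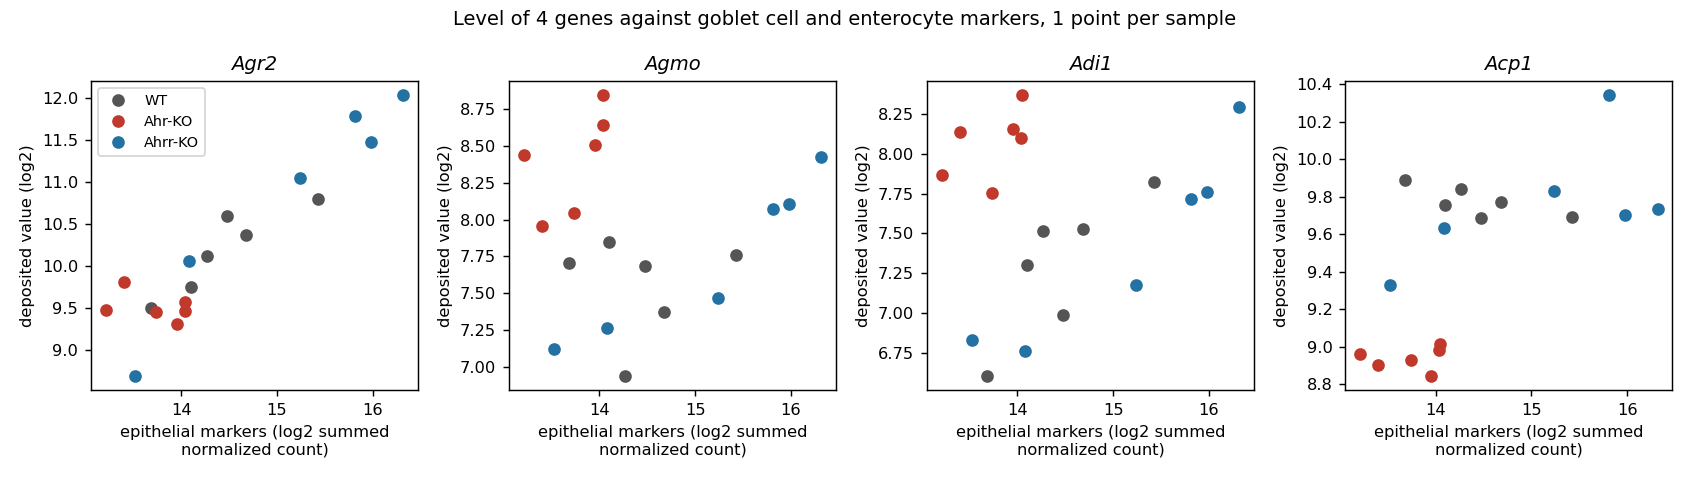
Level of Agr2, Agmo, Adi1 and Acp1 (y axis, deposited log2 value) against the log2 summed normalized count of 28 goblet cell and enterocyte markers (x axis), with a point per sample coloured by genotype. For Agr2, r was 0.973 in Ahrr-KO (exact permutation adjusted p = 0.0417) and 0.911 in WT (adjusted p = 0.05, not below the threshold), while the Acp1 levels of Ahr-KO stay between 8.84 and 9.02.

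Over the 11 marker lists, the summed level differed between WT and Ahr-KO in 2 after adjustment over the lists. The neutrophil list, led per kb by Retnlg, was 14.57 to 15.58 (median 15.14) in WT, 15.78 to 16.80 (median 16.36) in Ahr-KO and 14.58 to 15.48 (median 15.12) in Ahrr-KO, with a difference WT minus Ahr-KO of -1.21 (exact permutation p = 0.00216, adjusted p = 0.0119). Of its 6 tested genes 2 were called, both higher in Ahr-KO, and the defining markers Ly6g and Elane stayed below 10 normalized counts in every sample. The fibroblast and endothelial list, led by Pecam1, was 11.37 to 11.93 (median 11.74) in WT, 10.93 to 11.23 (median 11.10) in Ahr-KO and 11.29 to 11.95 (median 11.70) in Ahrr-KO, with a difference of 0.62 (exact permutation p = 0.00216, adjusted p = 0.0119) and 1 of 4 tested genes called. In WT and Ahr-KO each of these sums is nearly all 1 gene. Retnlg had a mean of 35100 normalized counts in WT, 81800 in Ahr-KO and 33100 in Ahrr-KO, and Pecam1 had 3170, 2020 and 2640. Other genes of the lists were highest in Ahrr-KO, such as S100a8 (102, 199 and 642) and Col3a1 (33.8, 22.1 and 175), so between WT and Ahr-KO each sum mainly describes that 1 gene, while in Ahrr-KO the other fibroblast and endothelial genes add more to theirs.

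The sums of the other lists did not pass, which does not mean that their genes were unchanged. The eosinophil list, led by Alox15, differed by -0.17 (exact permutation adjusted p = 0.25), but 3 of its 9 tested genes were called, in opposite directions: Prg2 at -2.30 and Alox15 at -0.58, higher in Ahr-KO, and Csf2rb at 1.45, higher in WT. Of the genes behind the gate, Siglecf had 837 to 3110 normalized counts, and H2-Aa, an MHC-II gene, had means of 490 in WT, 701 in Ahr-KO and 1070 in Ahrr-KO although the gate was for cells without MHC-II. Cd74, which is made along with MHC-II, had 895, 910 and 1720. Among other eosinophil genes Ccr3 had 5290 to 15600, while Epx had 3.03 to 23.6 and Ear6 stayed below 10. The whole goblet cell list, led by Ccl6, differed by 0.09 (0.652), the enterocyte list, led by Krt19, by 0.49 (0.318) and the Paneth cell list, led by Lyz1, by 0.21 (0.721). The pancreatic acinar list, led by Ctrb1 and with Prss1 and Amy2a5 below 10, differed by 2.68 (0.103), with 3 of 8 tested genes called, each higher in WT. The macrophage and dendritic cell list, led by Adgre4, differed by -0.26 (0.185), the B and plasma cell list, led by Jchain, by 1.21 (0.233), the T cell and innate lymphocyte list, with Gata3 below 10, by 0.68 (0.318), and the mast cell list, led by Kit and with Mcpt4, Tpsb2 and Fcer1a below 10, by -0.58 (0.45). In Ahr-KO against Ahrr-KO, where Agr2 was lower in Ahr-KO, 4 lists passed by exact permutation: the neutrophil list at 1.21 (adjusted p = 0.0119), the fibroblast and endothelial list at -0.62 (adjusted p = 0.0119), the Paneth cell list at -2.14 (adjusted p = 0.0159) and the B and plasma cell list at -3.13 (adjusted p = 0.0298). The neutrophil sum again follows mainly Retnlg. Of the 6 tested genes of that list, limma called 1 higher in Ahr-KO and 2 higher in Ahrr-KO, against 6.84% and 8.04% of all genes. In WT against Ahrr-KO no list passed by exact permutation. Single markers still differed there: limma called 2 of the 6 tested genes of the neutrophil list, against 0.0779% of all genes. The sum of that list, mainly Retnlg, differed by -0.0005. The differences farthest from 0 there were those of the Paneth cell list at -1.92 (adjusted p = 0.119) and the B and plasma cell list at -1.92 (adjusted p = 0.196), both higher in Ahrr-KO. Next came the acinar list at 1.36 (adjusted p = 0.444), higher in WT.

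Pathway partners of the members, elsewhere in the genome, were read from the fit across all genes. Over the 107 other tested genes of these pathways and families, leaving out the receptor's targets, 8 were called in WT against Ahr-KO (7.48%), against 8.84% of all genes. In methionine salvage, the pathway of Adi1, 2 of 12 other tested genes were called in WT against Ahr-KO: Mtap, the phosphorylase that starts the pathway, at -0.42, and Mat2a, which makes S-adenosylmethionine, at 0.94. Of the class I phosphoinositide 3-kinase subunits 2 of 9 besides Pik3cg were called, the catalytic Pik3cb at -0.66 and the regulatory Pik3r3 at 0.75. Of 16 genes downstream of or opposing the kinase, 1 was called, Prex1, an exchange factor for Rac, at -0.42. Among tyrosine phosphatases of leukocytes it was 1 of 10 besides Acp1, Ptpn18 at -0.66.

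In ether lipid and tetrahydrobiopterin metabolism, 1 of 12 genes besides Agmo was called, Aldh3a2, which oxidizes the fatty aldehyde that Agmo releases, at 1.06 (standard error 0.09). Of the RING-between-RING ligases 1 of 13 besides Rnf144a was called, its closest relative Rnf144b, at -0.54. For the members' other families limma called 0: of 13 TRAPP subunits besides Trappc12, of 5 phosphoribosyl pyrophosphate synthetase genes besides Prps1l1 and of 17 protein disulfide isomerases besides Agr2. Known targets of the receptor were called in 4 of 6, Ahrr at 4.83, Cyp1b1 at 4.07, Tiparp at 2.60, the gene of a mono-ADP-ribosyltransferase, and Nqo1 at 1.82, each higher in WT. In WT against Ahrr-KO limma called 0 genes in each of these 10 lists.

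The gene outside the range most like each member, by Pearson r over the 18 samples among 11422 genes, differed from member to member. Acp1 was closest to Nqo1 (r 0.937), a target of the receptor, and to Cradd (0.91). Agr2 was closest to the goblet cell genes Zg16 (0.978) and Guca2a (0.952). Pik3cg was closest to Cybb (0.963), the phagocyte oxidase gene, and Marchf1 (0.959), Agmo to Itga2 (0.902) and Abcg2 (0.819), and Adi1 to Myo1d (0.87) and Lap3 (0.857). The long noncoding RNA 9130015A21Rik was closest to Zzz3 (0.958) and Tirap (0.933), and F730043M19Rik to Osgin2 (0.951) and Gm14548 (0.947). Prps1l1 was closest to Zmym3 (0.909) and Niban1 (0.909), Rnf144a to Mmp8 (0.862), and Trappc12 to Acpp (0.843) and Nmur1 (0.841). The samples share genotype differences, depth and marker levels, so these values describe likeness only.

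Between genes, levels can be compared per kb of exon, in mean normalized counts per kb over the 18 samples. The order was Agr2 (1060), 9130015A21Rik (447), Pik3cg (241), Acp1 (190), Adi1 (77.7), Trappc12 (44.7), F730043M19Rik (42.4), Agmo (30.5), Prps1l1 (17.0) and Rnf144a (4.52), against 2790 for Ahr. By genotype the order changed. 9130015A21Rik was first in Ahr-KO at 827, above Agr2 at 519, and behind Agr2 elsewhere. Acp1 and Pik3cg were level in WT, at 224 and 225, while in Ahr-KO Acp1 had 118 and Pik3cg 309. Trappc12 was above F730043M19Rik in WT (50.1 and 24.5) and below it in Ahr-KO (37.2 and 80.5).

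Some reads of a member could also come from a gene that shares its sequence. Of the stretches of 75 bases in annotated transcripts, the stated least read length, 23.1% of those in Acp1 also occur in other genes: 11.8% in the neighbouring Alkal2, which overlaps it, 7.2% in Gm14388, 4.52% in Gm1866 and 1.46% in Gm6197. The last 3 were not found in the table by name, so their levels are not known here. For 9130015A21Rik the share was 8.5% and for F730043M19Rik 2.77%, each with an overlapping gene on the other strand, and for the other 7 members it was 0. Those overlapping genes, Gm34047 and Gm16267, were likewise not found by name, so their levels are not known here. Alkal2 had at most 2 counts in any sample and 0 in 14 of 18. The antisense gene 4930549C15Rik within Rnf144a had at most 8 counts, beside 2 to 80 for Rnf144a. Whether the libraries keep the strand of the RNA is not stated, so transcripts from opposite strands of an overlap cannot be told apart.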

How the data were processed

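The deposited table gives gene expression as variance-stabilized log2 values, computed by the authors with DESeq2. The labels' processing notes name STAR 2.5.2, RSEM 1.3.0, R 4.0.3 and GRCm38 (mm10), and the paper nf-core/rnaseq. Undoing the stabilization, with the lowest value (5.02) as a count of 0, returned whole numbers in 100% of cases (tolerance 0.0001). These counts served for depth, normalized counts and voom. Of 22708 genes 22685 matched RefSeq, and 8 members were found by symbol and 2 by Entrez ID. limma 3.58.1 (R 4.3.3, mean-variance trend) fitted genotype and sex to each pair of genotypes, over genes whose mean was at least 1 above the lowest value, with Benjamini-Hochberg adjustment over all of them. Called means an adjusted p below 0.05. Sex was fitted over all 18 samples. Marker lists were compared by exact two-sided permutation. Fits were tested on simulated data, and the outcome is not reported here. Software also included Python 3.11.15, numpy 2.4.6, scipy 1.17.1, pandas 2.3.3 and matplotlib 3.10.9. Members and lists were chosen with earlier results of these data known. Named genes are the members, Ahr, Ahrr, called genes within 10 Mb of Ahr, the nearest tested neighbours of Ahr and of members, the uncalled gene of smallest adjusted p, up to 4 called genes per pathway list, the most abundant gene and undetected defining markers per marker list, up to 5 called genes near Ahrr in WT against Ahrr-KO, and the 2 genes most like each member. For 1 marker list and 1 member a gene that this rule names is not reported here. Stxbp6, the genes near Ahrr called in WT against Ahr-KO, and markers named for being low, called, unlike their list or for the sort were added after their values were seen. Alternatives are listed with their effect under the dependence on processing.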

Additional observations from a re-analysis of the deposited data

Results flagged for a closer look

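Of 75 groups of 6 samples examined for a sample far from the others, 5 had one, and chance gives about 1 in 20. In Pik3cg the lowest Ahr-KO sample, F3, had 11.24 on the log2 scale, and the others had 11.37 to 11.45. The log2 sum of the T cell and innate lymphocyte markers was 4.27 in Ahrr-KO F1, and 6.82 to 7.49 in the other Ahrr-KO samples. The log2 sum of the mast cell markers was 5.99 in Ahrr-KO M2, and 7.42 to 7.75 in the others. The number of genes with a count of 0 was 2464 in WT F3, against 6182 to 7562 in the other WT samples, and 3014 in Ahr-KO F3, against 6004 to 7229 in the other Ahr-KO samples.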

How the results depend on the processing

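With every alternative counted for each member, and each left-out library counted once, direction and side of the threshold were kept in 208 of 236 refits of WT against Ahr-KO (28 lost the call), 189 of 203 of WT against Ahrr-KO (14 turned sign), 194 of 226 of Ahr-KO against Ahrr-KO (25 lost and 6 gained a call, 1 turned sign), 238 of 245 for sex (7 turned sign) and 162 of 196 for genotype by sex (34 turned sign). The refits share samples and are not independent. In WT against Ahr-KO, Agr2 lost its call in 9 of 12 fits that leave out a library, Rnf144a in 6 and Trappc12 in 4, and 7 (without Ahr-KO M3 or WT M2) to 10 members were called. With all 18 samples in 1 fit 7 were called, with Adi1 (adjusted p 0.0619 from limma), Pik3cg (0.061) and Agr2 (0.369) lost. With the epithelial sum 8 were called (Agr2 and Pik3cg lost), but 10 with Ccl6 kept in it. With no minimum and without both F3 libraries 8 were called (Rnf144a and Agr2 lost). Genes called in WT against Ahr-KO went from 1003 to 553 with all 18 samples in 1 fit and 586 without both F3 libraries, and leaving out each library gave 623 (without Ahr-KO F1) to 1124 (without WT F2). In WT against Ahrr-KO 9 became 14 with all 18 samples, 15 with the epithelial sum, 16 with Ccl6 kept in it, 5 with a stricter minimum of 3 or quantile normalization, 4 with centring, log2 of the normalized count plus 1, no minimum, voom or the replicate block, 4 or 5 without any of Ahrr-KO F2, F3, M2 or M3 or WT F1, F2, M2 or M3, and 25 without Ahrr-KO F1. In Ahr-KO against Ahrr-KO 1708 became 298 with the epithelial sum, 363 with Ccl6 kept in it, 828 with the stricter minimum, 994 without sex, 818 to 1001 without any of Ahr-KO F1, F2, M1, M2 or M3 or Ahrr-KO F3 or M3, and 2574 without Ahrr-KO F1. For sex 351 became 163 with no minimum, 142 to 211 without any of Ahr-KO F1, F2, M1, M2 or M3, Ahrr-KO F1, F2 or M3 or WT F2 or M3, 577 without Ahrr-KO F3, 595 without WT M1 and 733 without WT F1. Genes called near Ahr in WT against Ahr-KO went from 10 to 18 within 20 Mb and 5 at an adjusted p below 0.01, and in WT against Ahrr-KO from 0 to 1 within 20 Mb. Members called in Ahr-KO against Ahrr-KO went from 8 to 5 with the stricter minimum, which tests 6 of them, to 6 without sex or with no minimum (Agr2 and Agmo lost), to 6 with the epithelial sum, to 7 with Ccl6 kept in it, to 7 with voom and to 9 with centring or quantile normalization (Adi1 gained). Agr2 lost its call there without any of Ahr-KO F2, M1, M2 or M3 or Ahrr-KO F3, M1 or M3 (-1.11 to -1.41, adjusted p 0.0544 to 0.0869), and Agmo without any of Ahr-KO F1, F2, F3, M1 or M2 or Ahrr-KO F1, F2, M1 or M2 (0.56 to 0.73, adjusted p 0.0607 to 0.103). Adi1 gained one without Ahrr-KO F3 (0.75, adjusted p 0.0418) or M3 (0.80, adjusted p 0.0238). With the epithelial sum WT minus Ahrr-KO turned to 0.25 for Adi1, 0.037 for Agr2, 0.045 for Agmo and -0.078 for F730043M19Rik (0.34, 0.20, 0.14 and -0.15 with Ccl6 kept in it), and Ahr-KO minus Ahrr-KO to 0.12 for Agr2. Quantile normalization turned Acp1 to -0.017 in WT minus Ahrr-KO and Pik3cg to -0.060 in genotype by sex. Leaving out each library gave -0.067 to 0.12 for Acp1 and -0.28 to 0.033 for Adi1 in WT minus Ahrr-KO, and -0.025 to 0.092 for Pik3cg in male minus female, which centring turned to -0.018 and leaving out both F3 libraries to -0.021. Genotype by sex turned to 0.010 for Agmo and 0.022 for 9130015A21Rik with log2 of the normalized count plus 1, to 0.051 for 9130015A21Rik and 0.092 for F730043M19Rik with voom, and to 0.11 and 0.054 without the F3 libraries. Leaving out each library it was -0.42 to 0.19 for Adi1, -0.19 to 0.46 for Agr2, -0.0076 to 0.23 for Pik3cg, -0.31 to 0.13 for Agmo, -0.22 to 0.15 for 9130015A21Rik and -0.30 to 0.16 for F730043M19Rik. For WT minus Ahr-KO marker sums it was -0.016 to 0.15 for goblet cells, -0.13 to 0.52 for Paneth cells, 2.18 to 3.33 for acinar cells (2.51 without the F3 libraries, with the unadjusted p no longer below 0.05) and -0.32 to -0.18 for macrophages and dendritic cells. Replicate numbers did not pair samples: over 18 pairs the correlation was -0.59 to 0.47, with 6 best matches. Both epithelial sums and leaving out both F3 libraries were chosen after seeing the data. The cause of these shifts was not tested.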
